A study of Mus musculus with 6 samples.

Results

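The genes described here make the proteins that package, cut and rejoin nuclear RNA: heterogeneous nuclear ribonucleoproteins (hnRNPs), proteins of the small nuclear ribonucleoproteins (snRNPs), splicing factors, RNA binding motif proteins and DEAD box helicases. They were taken by name from the array's annotation, as every probe whose annotation holds 1 of 6 terms for these families, and the brightest probe stood for each annotation name. This gave 40 gene names, carried by 58 of the 8272 probes. By role, 8 names are hnRNPs or the enzymes that methylate them, 5 are snRNP proteins or the factor U2AF, 8 are splicing factors, 8 are RNA binding motif proteins and 11 are DEAD box helicases or their relatives. Current symbols from the mouse gene table are used for 37 of them. The other 3, an EST similar to human hnRNP R (hnRNP R-like), U2AF and DEAD/H box polypeptide 13 (DEAD/H box 13), keep their annotation names.

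The study compared ovaries of newborn C57Bl/6J mice (day 0, less than a day old) with ovaries of pups at day 2 and day 4 after birth, the time when ovarian follicles form and begin to grow. Whole ovaries were used, and the labels name no treatment and no altered allele for any group. How many animals gave each RNA is not stated there. There were 6 spotted cDNA arrays, 3 with day 2 RNA and 3 with day 4 RNA in the Cy5 channel, each with a day 0 RNA in the Cy3 channel, and each probe was read 4 times per array. Each value below is the mean of these 4 repeats, on a log2 scale, of day 2 or day 4 over day 0, so that a negative value is a lower signal in the later ovary. Array 3 of both ages was hybridised against the same day 0 RNA, and no array had the dyes exchanged, so that a dye effect of a gene and a change against day 0 cannot be told apart.

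A newly made transcript is coated by hnRNPs, which shape its folding, its splicing and its export. The spliceosome assembles on each intron from snRNPs: U1 marks the start of the intron, U2 its branch point with the help of U2AF, and further particles then carry out the cuts. SR proteins such as Srsf2 and Srsf3 favour the use of exons, while many hnRNPs oppose it. DEAD box proteins and their DEAH relatives remodel RNA and protein complexes with energy from ATP, in splicing and also in ribosome assembly and translation. In the ovary, oocytes store many transcripts while they grow, and processing of RNA in the growing oocyte supplies this store.

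The arrays differed in quality, and the day 2 arrays did not run alike. Day 2 arrays 1, 2 and 3 had values for all 40 names, as did day 4 array 2, while day 4 arrays 1 and 3 had values for 36 and 28. Complete sets of 6 values were present for 24 names. Between day 2 arrays 1 and 2 the Pearson correlation of log2 ratios was -0.68 over 8272 probes and -0.61 over the 40 names, of which 30 had opposite signs on these arrays. The dyes are stated for every array and the direction is kept here, but the direction of the day 2 means is not settled, and day 2 results are also given with either array turned. Day 4 arrays 1 and 2 had a correlation of 0.75 over all probes and 0.36 over the 36 names measured on both. The median standard deviation (SD) over the arrays of an age was 0.49 for these genes at day 2 and 0.29 at day 4, against 0.14 between the repeats of a probe on an array.

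**Figure D1:**
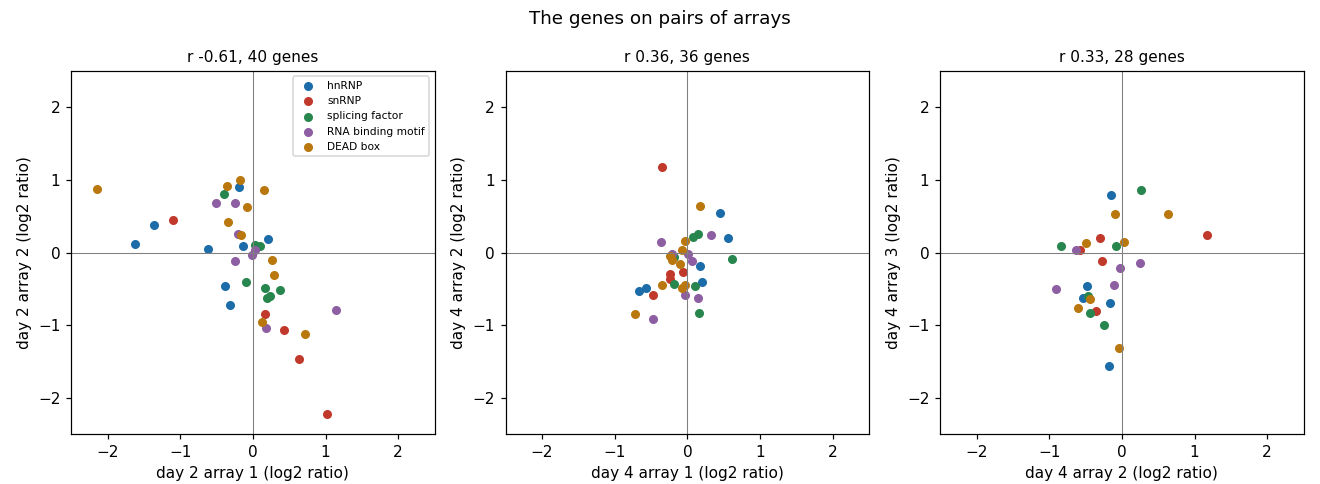
Log2 ratios of the genes on 3 pairs of arrays of the same age, with each point a gene name coloured by its class and each axis the log2 ratio on that array. On the first pair, day 2 arrays 1 and 2, most points lie in the quadrants of opposite sign (r = -0.61 over 40 names), and on day 4 arrays 1 and 2 (r = 0.36 over 36 names) and arrays 2 and 3 (r = 0.33 over 28 names) they do not. On day 4 arrays 1 and 3, not plotted, r was 0.19 and 11 of 24 names had opposite signs.

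At day 4, 28 of the 40 names had a mean log2 ratio below 0, or 70.0%, against 50.2% of the 8135 probes tested. Their median was -0.14, while that of all probes was -0.001. On every day 4 array with a value, 17 names were below 0, where the share of all probes was 25.2%, and 5 were above 0, where it was 28.4%. None passed the test. With limma and Benjamini-Hochberg adjustment over 8135 probes, 0 of 40 names had an adjusted p under 0.05 against day 0, where the background was 0.479% of probes, all of them higher at day 4. The lowest adjusted p in limma was 0.131, for Hnrnpdl. At an unadjusted p under 0.05, 4 names were lower (Hnrnpdl, DEAD/H box 13, Hnrnpc and Rbms1), against a background of 4.29% of probes, and 1 was higher (Ddx3y), against 5.00%.

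The picture across single arrays was uneven. The share of the names below 0 was 61.1%, 75% and 57.1% on day 4 arrays 1, 2 and 3, where 48.8%, 48.1% and 48% of all probes were below 0. On day 2 arrays 1, 2 and 3 it was 52.5%, 47.5% and 70%, beside 50.3%, 48.3% and 50.4% of all probes. An excess of values below 0 over the background was thus present on all 3 day 4 arrays and on day 2 array 3, and on the other day 2 arrays the share lay within 3 percentage points of that of all probes. Day 2 array 3 and day 4 array 3 share a day 0 RNA and are not independent. Their correlation was 0.66 over 28 names and 0.77 over 5630 probes. Without day 4 array 1 the day 4 median of the names was -0.23, and without day 4 array 2 it was -0.10.

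At day 2, 26 names had a mean below 0, against 47.6% of all probes, with a median of -0.13 beside 0.01 for all probes. In limma 0 names passed at an adjusted p under 0.05, as did 0% of all probes, and the lowest adjusted p was 0.966. At an unadjusted p under 0.05, 2 names were lower (Hnrnpdl and Hnrnpc; background 1.12%) and 1 was higher (Ddx3y; background 1.72%). With the sign of day 2 array 1 turned, 11 names (27.5%) had an unadjusted p under 0.05, 9 of them lower, beside 23.2% of all probes, and with that of array 2 turned there were 7 (17.5%), 4 of them lower, beside 13.8%. With array 1 or 2 turned, 23 or 26 names were below 0, where the share of all probes was 49.3% in both cases. On every day 2 array 5 names were below 0, where the share of all probes was 7.33%, and 2 were above 0, where it was 9.13%. Turning array 2 changed the sign of the day 2 mean of 24 of the 40 names, and turning array 1 that of 9.

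**Figure D2:**
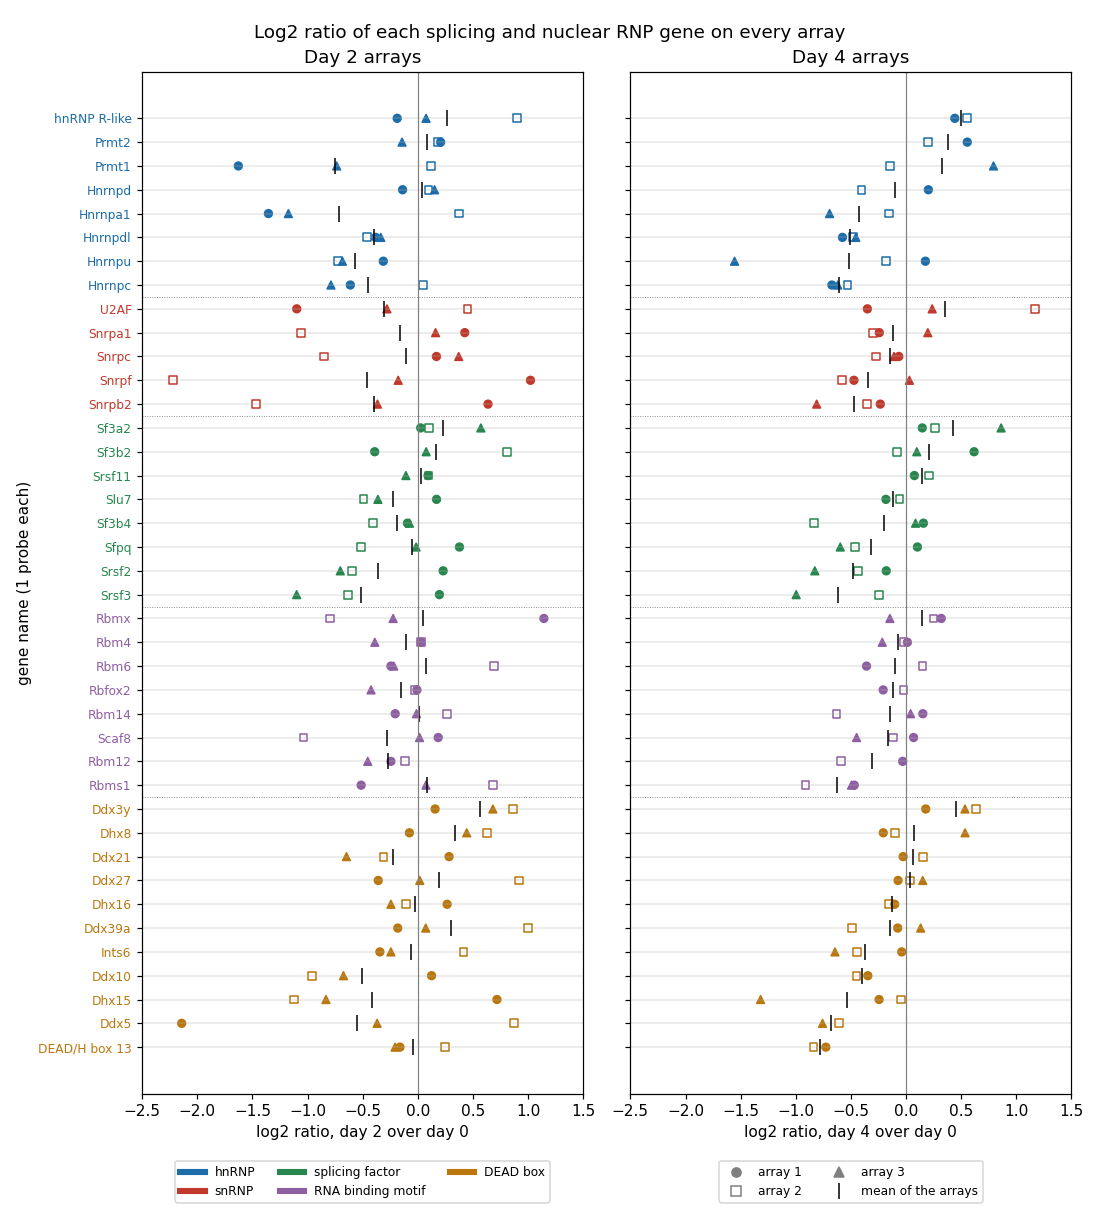
Log2 ratios of the 40 gene names on each array, at day 2 on the left and day 4 on the right, with 1 line per name, a circle, square or triangle for array 1, 2 or 3, a black bar for their mean, and colour for the class of the gene. At day 4 the means of 28 names lie below 0, and the day 2 arrays of a gene spread more widely than its day 4 arrays (median SD 0.49 against 0.29).

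Of the hnRNPs, Hnrnpdl had the smallest SE of all 40 names. This AU-rich element binding protein, related to hnRNP D, had log2 ratios of -0.38, -0.46 and -0.34 on day 2 arrays 1 to 3 and -0.58, -0.48 and -0.46 on day 4 arrays 1 to 3. All 6 arrays were thus below 0, and the ranges of the ages overlapped. Its mean at day 4 was -0.50 ± 0.10 (SE, n = 3; unadjusted p = 0.002 and adjusted p = 0.131 in limma), and at day 2 it was -0.39 ± 0.10 (SE, n = 3; adjusted p = 0.966 in limma). Over 21 alternative settings of the analysis its day 4 value ran from -0.56 to -0.47, with adjusted p from 0.075 to 0.877 in limma. Many of these settings, such as turned or left-out day 2 arrays, cannot move this value and act only on its adjusted p. With the sign of day 2 array 1 or 2 turned, its day 2 mean was -0.14 or -0.09. Across all names with a value below 0 on every array, Hnrnpdl was joined by Rbm12 and Rbfox2, so that 3 of 40 had this pattern against 4.30% of all probes.

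Hnrnpc, a core hnRNP that binds runs of uridine in introns, had log2 ratios of -0.61, 0.04 and -0.79 on the day 2 arrays and -0.67, -0.53 and -0.62 on the day 4 arrays. The day 4 arrays lay close together, and day 2 array 2 stood apart from the other 5. Its mean was -0.61 ± 0.17 at day 4 (SE, n = 3; adjusted p = 0.316 in limma) and -0.45 ± 0.17 at day 2 (SE, n = 3; adjusted p = 0.966 in limma), and -0.04 and -0.48 at day 2 with array 1 or array 2 turned. Fitted on the day 4 arrays alone, its adjusted p was 0.052, the lowest of these genes in any setting at day 4. Another probe of nearly the same brightness had 0.51, -0.33 and -0.82 at day 2 and 0.05, -0.10 and -0.86 at day 4. Its mean was -0.21 at day 2 and -0.30 at day 4. A dimmer probe of Hnrnpc had 0.16, 0.98 and 0.18 at day 2 and 0.06, 0.03 and -0.39 at day 4. Its mean log2 intensity was 11.78 against 13.73, and its mean log2 ratio was 0.44 at day 2 and -0.10 at day 4. The even day 4 values thus belonged to the brightest probe and not to the name. The day 2 means of the Hnrnpc probes differed in sign.

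Hnrnpa1, an abundant shuttling hnRNP, had -1.36, 0.38 and -1.17 at day 2 and -0.16 and -0.69 on day 4 arrays 2 and 3, with no value on array 1. Hnrnpu, which binds the nuclear scaffold, had -0.31, -0.73 and -0.68 at day 2 and 0.18, -0.18 and -1.56 at day 4. Hnrnpa1 was above 0 on day 2 array 2 only, and day 4 array 3 of Hnrnpu lay far below its other arrays. The day 4 means were -0.43 ± 0.46 for Hnrnpa1 (SE, n = 2) and -0.52 ± 0.33 for Hnrnpu (SE, n = 3), with adjusted p of 0.828 and 0.708 in limma. Hnrnpd, which binds AU-rich elements and steers the decay of messages, had a day 4 mean of -0.10 ± 0.20 (SE, n = 2). The hnRNP R-like EST had 0.44 and 0.55 on day 4 arrays 1 and 2 and a mean of 0.50 ± 0.28 (SE, n = 2), after -0.19, 0.90 and 0.08 at day 2.

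The arginine methyltransferases that modify hnRNPs had positive day 4 means. Prmt2 had 0.21, 0.19 and -0.14 at day 2 and 0.56 and 0.20 on day 4 arrays 1 and 2, with a day 4 mean of 0.38 ± 0.17 (SE, n = 2; unadjusted p = 0.077 and adjusted p = 0.612 in limma). Prmt1, the main enzyme of asymmetric arginine dimethylation, had -1.63, 0.12 and -0.74 at day 2 and -0.14 and 0.79 on day 4 arrays 2 and 3. The arrays of Prmt1 lay on both sides of 0 at each age, and its day 4 mean was 0.33 ± 0.46 (SE, n = 2).

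The 4 snRNP proteins were above 0 on day 2 array 1 and below 0 on day 2 array 2, and passed no test at either age. This was not particular to them, since 30 of the 40 names had opposite signs on these arrays. Rbmx and Dhx15, among others, ran in the same direction, and names such as U2AF and Ddx5 in the reverse one. Snrpf, a ring protein shared by the spliceosomal snRNPs, had 1.02, -2.22 and -0.18 at day 2 and -0.47, -0.58 and 0.03 at day 4. Snrpa1, of the U2 particle, had 0.43, -1.06 and 0.16 at day 2 and -0.24, -0.30 and 0.20 at day 4. Snrpb2, also of U2, had 0.64, -1.47 and -0.37 at day 2 and -0.23, -0.36 and -0.81 at day 4. All 3 were highest on day 2 array 1 and lowest on day 2 array 2. Snrpc, which helps U1 recognise the intron start, had 0.17, -0.85 and 0.37 at day 2 and -0.07, -0.27 and -0.11 at day 4. The day 4 means were -0.34 ± 0.56 for Snrpf, -0.12 ± 0.29 for Snrpa1, -0.47 ± 0.38 for Snrpb2 and -0.15 ± 0.24 for Snrpc (SE, n = 3 each), and none passed the test.

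As a description, Pearson's r over the 6 arrays between pairs of these 4 proteins ran from 0.75 (Snrpb2 and Snrpc) to 0.97 (Snrpa1 and Snrpf). Over the 4 arrays other than day 2 arrays 1 and 2, it ran from -0.81 (Snrpb2 and Snrpf) to 0.97 (Snrpa1 and Snrpf), so that the likeness of Snrpb2 to the others rested on the pair of arrays that run opposite over all probes. U2AF, the factor that guides U2 to the branch point, ran the other way, with -1.10, 0.45 and -0.28 at day 2, -0.35, 1.17 and 0.24 at day 4 and r from -0.64 to -0.58 with the snRNP proteins. Its day 4 mean was 0.35 ± 0.37 (SE, n = 3).

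The stretches just before the start site are printed here for Snrpf, Snrpa1 and Snrpb2. Snrpf and Snrpa1 were alike with and without day 2 arrays 1 and 2, and Snrpb2 was alike to them only with these arrays. This set was chosen after the values were seen, and a link between the stretches and the array values was not tested. The stretch of Snrpc, which held no match to the motifs below, overlaps its annotated gene and is not printed. Each is the 150 bases before the start site, 5' to 3' on the strand of the gene, from RefSeq on GRCm38.p6, and the capitals mark matches on either strand to CCAAT or GGGCGG. The stretches lie at chr10:93589659-93589808 (minus strand) for Snrpf, chr7:66060186-66060335 (plus strand) for Snrpa1 and chr2:143062919-143063068 (plus strand) for Snrpb2, just outside the annotated gene.
Snrpf: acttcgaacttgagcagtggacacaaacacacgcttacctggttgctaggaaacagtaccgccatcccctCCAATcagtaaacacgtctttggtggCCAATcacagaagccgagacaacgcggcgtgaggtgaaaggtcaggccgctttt
Snrpa1: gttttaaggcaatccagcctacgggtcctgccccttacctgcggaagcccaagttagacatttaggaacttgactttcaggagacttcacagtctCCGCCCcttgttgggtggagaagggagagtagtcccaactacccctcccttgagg
Snrpb2: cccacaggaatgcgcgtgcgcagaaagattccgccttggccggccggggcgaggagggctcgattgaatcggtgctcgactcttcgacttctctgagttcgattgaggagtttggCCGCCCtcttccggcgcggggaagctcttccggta
Snrpf held 2 matches to CCAAT, and the U2 proteins Snrpa1 and Snrpb2 held 1 match each to GGGCGG. None of the 3 stretches held TATAAA, which was searched in the same way. Over 39 start sites of 33 of the 40 genes, CCAAT was found in 48.7% and GGGCGG in 46.2% of such stretches, beside 24.5% and 28.6% of 32851 mouse promoters. TATAAA was found in 12.8% and 7.6%. These genes also had a higher share of G and C (median 62% against 54%), which bears on how often GGGCGG is met. With 250 bases before the start, CCAAT and GGGCGG were each found in 51.3% of the stretches of these genes, beside 33.8% and 32.7% of all.

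Among the splicing factors, Srsf3 and Srsf2 had the lowest day 4 means, and the U2-bound subunits were not of a single sign. Srsf3, a small SR protein that also serves in export, had 0.20, -0.63 and -1.10 at day 2 and -0.24 and -0.996 on day 4 arrays 2 and 3. Srsf2, an SR protein of nuclear speckles, had 0.23, -0.60 and -0.70 at day 2 and -0.18, -0.44 and -0.83 at day 4. In both, day 2 array 1 was the only array above 0, and array 3 was the lowest of each age. The day 4 mean was -0.62 ± 0.36 for the brightest probe of Srsf3 (SE, n = 2; adjusted p = 0.696 in limma), whose other probes had -0.18 and -0.10, and -0.48 ± 0.22 for Srsf2 (SE, n = 3; adjusted p = 0.602 in limma). Srsf11, the dimmest of the genes, had a day 4 mean of 0.14 ± 0.14 (SE, n = 2).

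Sf3a2, which joins the U2 particle before it binds the branch point, was above 0 on all 6 arrays. Its values were 0.03, 0.10 and 0.57 at day 2 and 0.15, 0.26 and 0.86 at day 4, and the ages overlapped. In each age array 3 was the highest, and those arrays share a day 0 RNA. The mean was 0.42 ± 0.19 at day 4 (SE, n = 3; unadjusted p = 0.062 and adjusted p = 0.579 in limma) and 0.23 ± 0.19 at day 2. With Ddx3y it was 1 of 2 names above 0 on every array, against 5.18% of all probes. Sf3b2 and Sf3b4, of the partner complex that grips the branch point, had day 4 means of 0.21 ± 0.25 and -0.20 ± 0.21 (SE, n = 3 each). For Sf3b4, day 4 array 2 at -0.83 stood apart from arrays 1 and 3 at 0.16 and 0.09.

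Sfpq, a partner of Nono in paraspeckles and in splicing, had 0.38, -0.52 and -0.02 at day 2 and 0.10, -0.46 and -0.60 at day 4, with a day 4 mean of -0.32 ± 0.21 (SE, n = 3). Slu7, which acts in the second step of splicing, had a day 4 mean of -0.12 ± 0.20 (SE, n = 2) and a day 2 mean of -0.23 ± 0.16 (SE, n = 3). Neither passed the test.

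Of the 8 RNA binding motif proteins, 7 had a day 4 mean below 0. Rbms1, a single-stranded nucleic acid binding protein, had -0.51, 0.68 and 0.07 at day 2 and -0.47, -0.91 and -0.49 at day 4. Its 3 day 4 arrays were all below 0, and day 2 array 1 lay within their range. The day 4 mean was -0.62 ± 0.23 (SE, n = 3; unadjusted p = 0.037 and adjusted p = 0.486 in limma), and the day 2 mean was 0.08 ± 0.23. A second probe of Rbms1, shown in the plot of probes that share a name, had 0.295, -0.45 and -0.72 at day 4. Its mean was -0.29 at day 4 and -0.21 at day 2, and its day 4 against day 2 difference was -0.085. Only the brightest probe was thus below 0 on every day 4 array, and the day 2 means differed in sign.

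Rbm12 had -0.24, -0.11 and -0.45 at day 2 and -0.03 and -0.59 on day 4 arrays 1 and 2, and Rbfox2, a regulator of alternative exons, had -0.01, -0.03 and -0.42 at day 2 and -0.21 and -0.02 on the same day 4 arrays. All these values were below 0, several of them by less than the median SD between repeats, and the day 4 means were -0.31 ± 0.19 and -0.12 ± 0.17 (SE, n = 2 each). Rbmx, an X-linked hnRNP-like protein, had 1.14, -0.79 and -0.22 at day 2 and 0.32, 0.25 and -0.15 at day 4, and it was the only one of this class with a positive day 4 mean (0.14 ± 0.35, SE, n = 3). Scaf8, Rbm14, Rbm6 and Rbm4 had day 4 means of -0.17, -0.15, -0.10 and -0.08, each smaller than its SE.

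Among the helicases, DEAD/H box 13 had the lowest day 4 mean of all 40 names. Its annotation calls it RNA helicase A, and its current gene could not be matched. It had -0.16, 0.25 and -0.21 at day 2 and -0.73 and -0.84 on day 4 arrays 1 and 2, with no value on array 3. For names with 2 day 4 values no share of all probes was counted, so the order of its day 4 and day 2 values is not read as a result. The mean was -0.78 ± 0.17 at day 4 (SE, n = 2; unadjusted p = 0.005 and adjusted p = 0.211 in limma) and -0.04 ± 0.14 at day 2 (SE, n = 3). Day 4 was lower than day 2 by a log2 difference of -0.74 ± 0.22 (unadjusted p = 0.018 and adjusted p = 1.00 in limma), the only name with an unadjusted p under 0.05 in that comparison, where the background of lower probes was 0.676%. With the sign of day 2 array 1 or 2 turned, the difference was -0.85 or -0.58.

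Ddx3y was the gene with the highest day 2 mean. Its annotation is the Y chromosome member of the Ddx3 helicases, which act in translation and RNA export, while the tissue is ovary, and whether this clone also binds transcripts of its X-linked relative Ddx3x was not tested. Its values were 0.16, 0.86 and 0.68 at day 2 and 0.18, 0.64 and 0.54 at day 4. All 6 arrays were above 0, array 1 was the lowest of each age, and the ages overlapped. The mean was 0.57 ± 0.17 at day 2 (SE, n = 3; unadjusted p = 0.016 and adjusted p = 0.966 in limma) and 0.45 ± 0.17 at day 4 (SE, n = 3; adjusted p = 0.497 in limma). With day 2 array 2 turned, its day 2 mean was -0.01, and with array 1 turned it was 0.46. A dimmer probe of the same name (mean log2 intensity 8.74 against 11.99) had 0.08, -0.56 and -0.02 at day 2 and -0.15, -0.42 and 0.13 at day 4, so that the name as a whole had no single sign.

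Ddx5, an abundant helicase that acts in splicing and as a coactivator of transcription, had -2.14, 0.87 and -0.37 at day 2 and -0.61 and -0.76 on day 4 arrays 2 and 3. Day 2 arrays 1 and 2 lay at opposite ends of these values, and the day 4 mean was -0.68 ± 0.69 (SE, n = 2). This SE draws on the spread of both ages, and the SD over arrays was 1.51 at day 2 and 0.10 at day 4. Dhx15, which takes spent spliceosomes apart, had 0.72, -1.12 and -0.83 at day 2 and -0.24, -0.05 and -1.32 at day 4 (mean -0.54 ± 0.41, SE, n = 3). Dhx8 and Dhx16, which act at different steps of splicing, had day 4 means of 0.08 ± 0.20 (SE, n = 3) and -0.13 ± 0.17 (SE, n = 2).

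The remaining members of the class serve other RNAs as well. Ddx10, a nucleolar helicase of ribosome assembly, had 0.13, -0.96 and -0.67 at day 2 and -0.35 and -0.45 on day 4 arrays 1 and 2, with means of -0.50 ± 0.23 at day 2 (SE, n = 3; unadjusted p = 0.079) and -0.40 ± 0.28 at day 4 (SE, n = 2). Ints6, a subunit of the Integrator complex that was first named as a DEAD box protein, had day 4 values of -0.04, -0.44 and -0.64 (mean -0.38 ± 0.19, SE, n = 3). Ddx39a, of mRNA export, had a mean of 0.30 ± 0.25 at day 2 and -0.14 ± 0.25 at day 4 (SE, n = 3 each). Ddx21 and Ddx27, both of ribosomal RNA processing, had day 4 means of 0.06 and 0.04, each smaller than its SE. The brightest probe of Ddx21 had values on 2 day 4 arrays. A dimmer probe of that name had -0.53, -0.36 and -0.33 at day 4 (mean -0.41 ± 0.18, SE, n = 3).

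For 12 names more than 1 probe was present, and these gave a check within the arrays. The sign of the day 4 mean differed between probes of a name in 5 of them (Ddx21, Ddx3y, Slu7, Sfpq and Snrpb2), and that of the day 2 mean in 7. The 3 probes of Srsf3 had day 2 means between -0.61 and -0.50 and day 4 means of -0.62, -0.18 and -0.10. Its brightest probe lacked day 4 array 1 and the other probes lacked day 4 array 3, and on array 2, which they shared, the values were -0.24, -0.32 and -0.26. Both probes of Ddx5 had day 4 means of -0.68 and -0.58. Among the 4 probes of Sfpq the day 4 means ran from -0.32 to 0.42, and the dimmest was above 0 on all 6 arrays, with 0.15, 0.50 and 0.60 at day 2 and 0.56, 0.24 and 0.45 at day 4. The dimmest probe of Snrpb2 had 0.33, 0.33 and 0.47 at day 4, where the brightest had 3 values below 0. In these names a value therefore describes its probe.

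**Figure D3:**
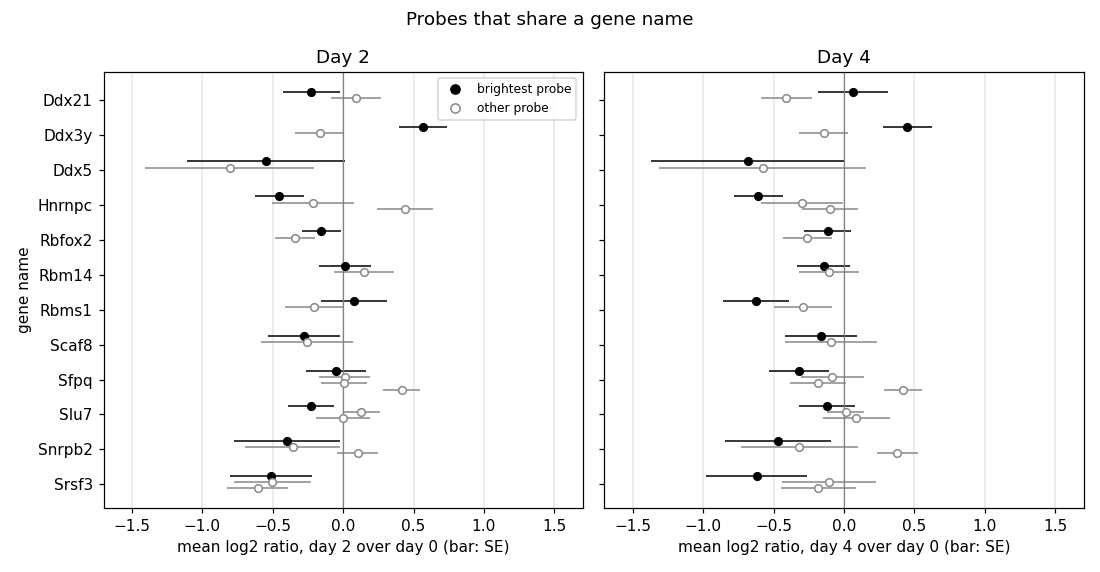
Mean log2 ratios over day 0 of all probes of the 12 names with more than 1 probe, at day 2 on the left and day 4 on the right, with the brightest probe of a name in black, the others in white, and bars for the SE of the fit. The probes of Ddx5 lie within each other's SE at both ages, and probes of Ddx3y, Sfpq and Snrpb2 lie on both sides of 0 at day 4. Those of Srsf3 lie together at day 2 (-0.61 to -0.50) and not at day 4 (-0.62 to -0.10). At day 4 the Srsf3 probes lacked values on different arrays, so that their means do not cover the same arrays.

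In the labelled direction the brightest of these genes had means below 0, and the dimmer ones were of both signs. The probes of these genes were brighter than most, with a median mean log2 intensity of 11.3 (8.03 to 13.9) against 9.66 for all probes. The 6 names with an intensity of 13 or more (Hnrnpa1, Hnrnpc, Hnrnpu, Srsf2, Srsf3 and Ddx5; grouped after the values were seen) had day 4 means between -0.68 and -0.43 and day 2 means between -0.72 and -0.36. All 6 were below 0 at both ages, where 44.5% of the 530 tested probes of that brightness were below 0 at day 4 and 48.9% at day 2. Of the 34 dimmer names, 22 were below 0 at day 4 and 20 at day 2, against 50.6% and 47.6% of the 7605 dimmer probes. With day 2 array 1 turned, 4 of the 6 bright names were below 0 at day 2, with Ddx5 at 0.88 and Hnrnpa1 at 0.19, and with array 2 turned 5 were, with Srsf2 at 0.04. As a description across genes, which are not independent replicates, Pearson's r of intensity with log2 ratio lay between -0.35 and -0.11 over these genes on the 6 arrays and between -0.08 and 0.06 over all probes. The part of brightness in the values of these genes was not tested.

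**Figure D4:**
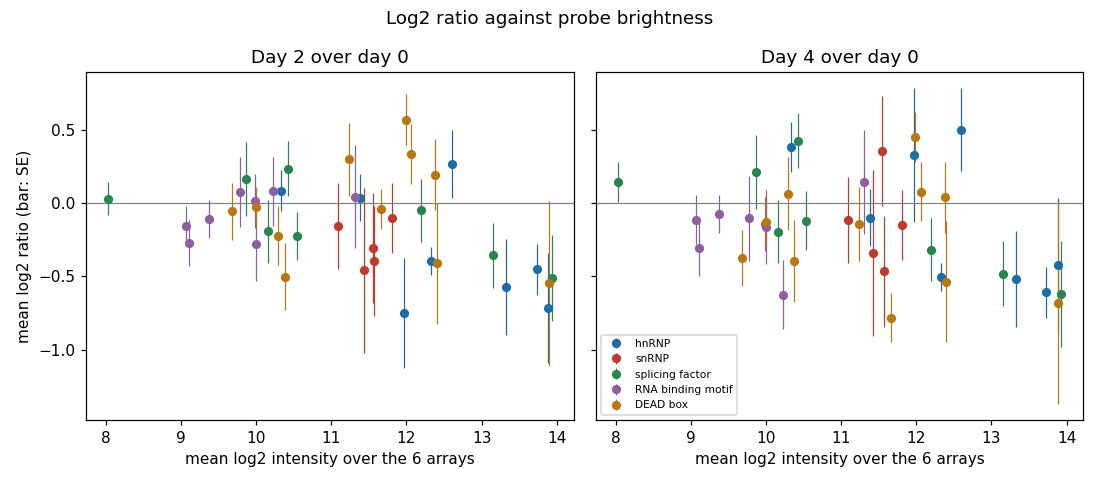
Mean log2 ratio over day 0 against the mean log2 intensity of the probe over the 6 arrays, for day 2 on the left and day 4 on the right, with 1 point per gene name coloured by class and bars for the SE. The 6 names at an intensity of 13 or more all lie below 0 at both ages, from -0.72 to -0.36 at day 2 in the labelled direction and from -0.68 to -0.43 at day 4. With day 2 array 1 or 2 turned, 4 or 5 of them lie below 0 at day 2.

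Between day 4 and day 2 no gene passed the test. In limma 0 of 40 names had an adjusted p under 0.05, as did 0% of all probes, and the median log2 difference was -0.04, beside -0.01 for all probes. The difference was below 0 for 22 names, against 53.0% of all probes. No name was higher at day 4 at an unadjusted p under 0.05, against 1.97% of all probes. For the 24 names with 6 values, none had all day 4 arrays above or all below the day 2 arrays, against 4.14% and 2.73% of 5270 probes. With day 2 array 1 turned, Rbmx lay above and Rbms1 below, against 9.64% and 5.62% of probes, and with array 2 turned, Hnrnpdl and Snrpc lay below and none above, against 6.96% and 8.79%. In the labelled direction Prmt1 differed by 1.07 ± 0.59 (SE; unadjusted p = 0.129) and Rbms1 by -0.70 ± 0.33 (unadjusted p = 0.077). With array 1 or array 2 turned, the difference was -0.01 or 1.15 for Prmt1 and -1.05 or -0.25 for Rbms1, so that neither the size nor the order of these differences is settled. This comparison runs through day 0 RNAs, and its median SE of 0.32 was larger than the 0.24 of day 4 and the 0.23 of day 2.

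Other genes of RNA processing, listed by function and not by the annotation terms, were looked at beside these. Of 49 measured, 47 could be tested, and in limma 0 passed in either direction in any of the 3 comparisons. At day 4, 33 of 47 had a mean below 0 (70.2%, against 50.2% of all probes), with a median of -0.18. At an unadjusted p under 0.05, 3 were lower (6.4%, against 4.29% of all probes) and 0 were higher (against 5.00%). Pabpn1, the nuclear poly(A) binding protein, had -0.59, 0.16 and 0.13 at day 2 and -0.55 and -1.19 on day 4 arrays 1 and 2, with a day 4 mean of -0.87 ± 0.27 (SE, n = 2; adjusted p = 0.406 in limma). Fbl, the methyltransferase of box C/D small nucleolar particles, was below 0 on all 6 arrays, with day 4 values of -0.53, -0.54 and -0.004 and a mean of -0.36 ± 0.14 (SE, n = 3; adjusted p = 0.512 in limma). On the other side, Crnkl1, of the spliceosome core, and Srpk2, a kinase of SR proteins, had day 4 means of 0.51 ± 0.24 (SE, n = 3) and 0.30 ± 0.15 (SE, n = 2).

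Markers of the cells an ovary holds were looked at as ratios over day 0, which give change and cannot check the tissue label. All 5 measured oocyte markers, Gdf9, Bmp15, Oosp1, H1f8 and Padi6, were above 0 on every day 4 array, with values from 0.56 to 3.42. On every day 2 array only 1 of the 5 was. Of 5 erythroid markers, 4 were below 0 on every day 4 array with a value, and the median of the 5 lay between -1.28 and -0.72 on these arrays. Both granulosa markers (Dhh and Cdkn1b) were above 0 at day 4, from 0.31 to 0.88, and 2 of 3 endothelial markers were below 0. Of the other lists, 3 of 5 smooth muscle and 1 of 2 germ cell markers were above 0 on every day 4 array with a value. The 3 steroidogenic markers and the 1 leukocyte marker were of mixed sign at day 4. In whole ovaries, fewer cells of a type and less RNA per cell cannot be told apart, and the part of cell makeup in the values of the splicing genes was not tested. The germ cell helicase Ddx4 was not analysed here.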

How the data were processed

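Ovary RNA was measured on 2-colour spotted cDNA arrays of mouse clones, 3 arrays of day 2 and 3 of day 4, each against day 0. Per the file headers, the authors deposited log2 ratios (later day in Cy5 over day 0 in Cy3), 4 repeats per probe and array, with mean log2 intensities and flags. The authors used R 1.7.1 per the submitters' processing notes. How background was corrected and ratios were normalized is not given in the sources used here. Array medians lay between -0.003 and 0.023, and no further normalization was made.

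The 4 repeats were averaged. Probes with values on at least 2 arrays of each age (8135 of 8272) were fitted together in limma 3.58.1 (R 4.3.3), with 1 mean per age over all 6 arrays, eBayes without trend and not robust, 2-sided tests and Benjamini-Hochberg adjustment over all 8135 probes (threshold 0.05; prior degrees of freedom 2.03). Standard errors (SE) come from this model, and n counts the arrays of that age that had a value. The SE of a day 4 mean thus also draws on the spread of the day 2 arrays, 2 of which run opposite to each other. Each p-value sets a mean, or a difference of means, against the spread between arrays pooled over both ages. The number of arrays limits the precision.

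Members and lists were chosen with earlier results of these data known. Named genes were, per class and age, up to 2 with the smallest p in each direction, up to 4 whose probes disagreed most, and 19 genes listed by interest, of which 6 were measured. The other names were described after their values were seen. Same-numbered arrays of the ages had correlations of their deviations of 0.37, 0.05 and 0.52. The main fit used no pairs, since the labels do not say that a replicate number marks a shared animal, batch or day. It treated the arrays as independent, although array 3 of both ages shares a day 0 RNA. The code was tested on simulated data. Alternatives covered normalization (median centring; scaling of absolute medians), flags, dim probes, probe choice, the fit, a replicate block, turned arrays and left-out arrays.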

Additional observations from a re-analysis of the deposited data

How the results depend on the processing

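0 of the 40 names passed the test at an adjusted p under 0.05 in limma in each of the 3 comparisons under every alternative that was run. In the reported fit, 5 names (day 4), 3 names (day 2) and 1 name (day 4 against day 2) had an unadjusted p under 0.05. Fitting each age alone raised the day 4 number at an unadjusted p under 0.05 to 13, of which 10 were lower (32.5%, beside 22.0% of all probes), with a lowest adjusted p of 0.052 for Hnrnpc. Leaving out single arrays gave day 4 medians over the names from -0.23 (without day 4 array 1) to -0.10 (without day 4 array 2), day 2 medians from -0.23 to -0.05 and day 4 against day 2 medians from -0.09 to 0.07. Without day 2 arrays 1 and 2, an alternative chosen after seeing the data, the day 4 against day 2 median was 0.12, and the cause was not tested. With the sign of day 2 array 1 or 2 turned, the day 2 median was -0.08 or -0.09. With a replicate block, 0 names passed and the medians were -0.19, -0.13 and -0.06 for day 4, day 2 and day 4 against day 2, while over all probes 21 passed at day 4, where 39 did without it. The day 4 against day 2 difference of DEAD/H box 13 was then -0.82 (unadjusted p = 0.051 in limma), and U2AF, at 0.66, was the only name with an unadjusted p under 0.05 in limma (0.016). The numbers of all probes past the test at day 4 ran from 0 (each single day 4 array left out, among others) to 166 with each age fitted alone. 2 of 3 day 2 arrays correlated best with the day 4 array of their own number. Among the limits are the number of arrays, the unsettled direction of the day 2 arrays, the single dye orientation and probes of a name that differ in sign.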
